A study of Mus musculus with 14 samples.

Results

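miR-135a-5p, a mature miRNA of 23 bases, was described along the mouse epididymis, in its caput, corpus and cauda, and in 2 preparations, whole tissue and isolated epithelial cells. It is 1 of the 900 miRNAs listed for whole tissue and 1 of the 677 listed for epithelial cells. It was among the 194 that had, under the same name, a mean count above 10 in at least 1 region of each preparation. It was chosen by its differing levels between the preparations, so its own values are given as a description with no test, and tests are given only for other miRNAs.

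Small RNA came from male Swiss mice of 8 weeks in every group, with no treatment. The groups differed in region, in preparation and in the number of mice pooled. Whole tissue was represented by 3 caput, 2 corpus and 3 cauda libraries, and epithelial cells by 2 libraries from each region. According to the study, the vasculature was flushed with saline before dissection. Each replicate pooled 3 mice in whole tissue, 9 in the epithelial caput and corpus and 12 in the epithelial cauda. For epithelial cells, spermatozoa were first flushed or washed out of the tissue, a step not described for whole tissue. The tissue was then digested with enzymes, and the cells that attached to a dish were removed. The study's text calls the replicates biological in one place and technical in another, so the errors given here are between libraries and p-values measure only that spread.

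Spermatozoa leave the testis immature and gain the ability to swim and fertilise as they pass from the caput through the corpus to the cauda, where they are stored. The epithelium lining the duct secretes a different fluid in each region, and the smooth muscle around it thickens towards the cauda. A miRNA is cut from a hairpin precursor by DROSHA and DICER1, loaded into an Argonaute protein, and lowers the output of mRNAs that pair with its seed, bases 2 to 8 from its 5′ end. miR-135a and miR-135b form a family whose best known target is APC, a brake on WNT signalling.

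In the mouse miR-135a-5p is cut from 2 hairpins with the same mature sequence, so its counts could not be divided between them. In RefSeq (GRCm38.p6), mir-135a-1 lies on chromosome 9 from 106154124 to 106154213 on the plus strand, in an intron of D030055H07Rik and opposite a UTR exon of Glyctk, which codes for glycerate kinase. The hairpin mir-135a-2 lies on the minus strand of chromosome 10 from 92072086 to 92072185, inside an intron of Rmst, a long non-coding RNA. The 3p arms differ between the hairpins, with 15 identical bases when aligned from the first base, and are printed because only they tell the hairpins apart. Of the 3p arms, miR-135a-2-3p is given below with its counts, and miR-135a-1-3p was not listed under this name for either preparation. The sequences run from 5′ to 3′ with the seed in capitals.
miR-135a-5p: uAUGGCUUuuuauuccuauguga
miR-135a-1-3p: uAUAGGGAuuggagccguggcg
miR-135a-2-3p: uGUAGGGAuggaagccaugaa
The hairpin of mir-135a-2 (chr10:92072086-92072185, minus strand) is shown with both mature arms in capitals, the 5p arm first.
mir-135a-2 hairpin: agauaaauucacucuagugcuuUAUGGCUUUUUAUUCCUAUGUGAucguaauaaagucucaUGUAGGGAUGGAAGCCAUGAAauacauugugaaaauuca

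The label of the epithelial preparation was compared with marker miRNAs. All 6 epithelial markers (the miR-200 family with miR-141-3p, and miR-205-5p) were present in every library, and their summed level was 24878 to 48090 CPM (counts scaled by the library total) in epithelial cells against 9119 to 20009 CPM in whole tissue. The members did not all go this way. In every region miR-141-3p had a lower mean in epithelial cells than in whole tissue, with 889 against 1706 CPM in the caput. The mean of miR-200a-3p was lower in the caput (3611 against 6383 CPM) and corpus (5046 against 6162 CPM), and that of miR-429-3p in the caput (3694 against 4020 CPM). The largest member in the epithelial caput was miR-205-5p, with 10115 CPM against 1740 CPM in whole tissue. The summed level of the 4 smooth muscle markers, nearly all of it miR-143-3p, was also high in epithelial cells. They summed to between 128207 and 187177 CPM in the caput, 206186 and 231539 CPM in the corpus and 185192 and 319561 CPM in the cauda, against 45364 to 58889, 83628 to 86419 and 248720 to 270971 CPM in the same regions of whole tissue. In the cauda the libraries of the preparations overlapped in this sum. There miR-143-3p had a mean of 239833 CPM in epithelial cells and 260759 CPM in whole tissue, and miR-1a-3p had 37.5 and 208 CPM. The other members went the other way, with 12147 and 1407 CPM for miR-145-5p (miR-145a-5p in whole tissue) and 359 and 298 CPM for miR-133a-3p. The study assessed its cell isolates by staining and immunoblots for markers of epithelium and sperm. It reported them as highly enriched for epithelial cells, with no sperm marker detected. Those experiments were not analysed here, and the preparation is called epithelial cells after its label. The part of any of these markers in the values of miR-135a-5p was not tested, and in such bulk samples fewer cells of a type and less RNA per cell cannot be told apart.

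The remaining lists are given mainly for the cauda, where the preparations differed most in miR-135a-5p. The 2 endothelial markers (the arms of miR-126) were at 12421 to 16309 CPM in the whole caput, 17806 to 19296 CPM in the whole cauda, and 24376 to 31664 CPM and 53724 to 54535 CPM in the epithelial caput and cauda. The 9 germ cell markers, such as miR-34c-5p, were at 10541 to 13407 CPM in the whole cauda against 2312 to 6819 CPM in the epithelial cauda. The 5 leukocyte markers were at 2129 to 2209 CPM in the whole cauda against 1504 to 1614 CPM in the epithelial cauda, most of it miR-142a-5p (named miR-142-5p in the epithelial table), while miR-150-5p (139 and 503 CPM) and miR-155-5p (10.2 and 37.2 CPM) went the other way. In the same groups the 3 erythroid markers were at 909 to 1420 CPM against 1829 to 2776 CPM, and the 3 fibroblast markers at 2582 to 3073 CPM against 2885 to 3489 CPM. Within the fibroblast list miR-199a-5p had means of 1564 CPM in the whole and 378 CPM in the epithelial cauda, and miR-199a-3p had 1151 and 2746 CPM. The 5 neural markers summed to 1815 to 2178 CPM in the whole caput and 619 to 835 CPM in the epithelial caput, most of it from miR-9-5p, followed by miR-138-5p and miR-128-3p, while miR-124-3p was at 0 in the 4 epithelial caput and corpus libraries. Libraries ranged from 1243398 to 2135501 counts in whole tissue and from 89039 to 362867 in epithelial cells, where the corpus libraries were the shallowest.

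In whole tissue the level of miR-135a-5p was lower in each region than in the one before it along the duct. Its CPM was 1458, 933 and 1117 in the 3 caput libraries (1170 ± 266, SD, n = 3). In the corpus it was 503 and 557 (530 ± 38.1, n = 2), and in the cauda 142, 123 and 141 (136 ± 11.0, n = 3). These CPM rest on 1609 to 2537 counts in a caput library, 625 and 774 in the corpus libraries and 179 to 253 in a cauda library. No library of one region overlapped with those of another, and the mean was 2.21 times as high in the caput as in the corpus, 3.91 times as high in the corpus as in the cauda and 8.63 times as high in the caput as in the cauda. Among the 360 miRNAs identified in whole tissue, miR-135a-5p ranked 48 to 59 in the caput libraries, 78 and 80 in the corpus and 137 to 148 in the cauda.

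In epithelial cells the same miRNA had a higher level in every region, including the cauda. The CPM was 1590 and 2016 in the caput (1803 ± 301, n = 2), 1251 and 2067 in the corpus (1659 ± 577, n = 2) and 1027 and 1234 in the cauda (1131 ± 146, n = 2). The caput and corpus libraries overlapped, and the lowest of all 6 was a cauda library. The mean was 1.09 times as high in the caput as in the corpus and 1.59 times as high in the caput as in the cauda. These levels rest on 159 to 655 counts per library, and the highest of them came from the library with the fewest counts in total, 89039. Among the 216 miRNAs identified in epithelial cells the rank was 43 to 48 in the caput, 45 to 59 in the corpus and 62 in both cauda libraries.

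**Figure D1:**
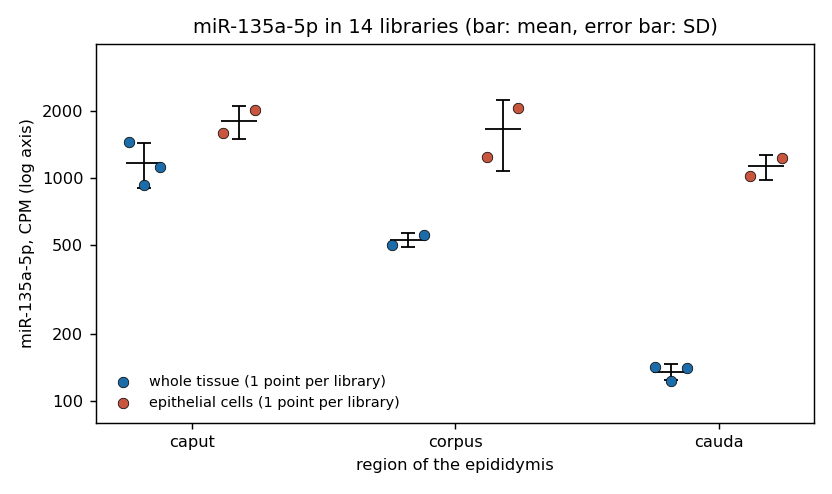
Level of miR-135a-5p in CPM of the library total (log axis) by region, with 1 point per library, a bar at the mean and an error bar of 1 SD (whole tissue n = 3, 2 and 3, epithelial cells n = 2 per region). The 3 cauda libraries of whole tissue sit between 123 and 142 CPM, below all others, while the 2 epithelial cauda libraries sit at 1027 and 1234 CPM.

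Set side by side within a region, epithelial cells held 1.54 times the level of whole tissue in the caput, 3.13 times in the corpus and 8.34 times in the cauda, with no overlap of libraries in any region. Ordered by mean CPM, the groups ran from epithelial caput over epithelial corpus, whole caput and epithelial cauda to whole corpus and whole cauda. Neighbours among the first 4 of this order overlapped, and whole corpus and whole cauda lay apart from the groups above them. The tables of the preparations were made separately, and every epithelial library was shallower than every whole tissue library. Preparation, number of mice pooled, RNA input and table therefore cannot be told apart in these level differences.

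The changes along the duct were also taken from limma-voom, with TMM scaling, in 1 fit for each preparation. In whole tissue the log2 change of miR-135a-5p was -1.45 (SE 0.16) from caput to corpus, -1.98 (SE 0.18) from corpus to cauda and -3.43 (SE 0.16) from caput to cauda. Of the 355 miRNAs tested from caput to cauda, 6 had a lower estimate. In epithelial cells the log2 changes were -0.33 (SE 0.22), -0.53 (SE 0.23) and -0.86 (SE 0.21), and 43 of 216 miRNAs had a lower estimate than miR-135a-5p from caput to cauda.

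The size of these changes depended on the scaling, since library totals moved the median change of all miRNAs tested up by 0.35 from caput to cauda in whole tissue and by 0.18 in epithelial cells (log2). Relative to the median of all miRNAs tested, the change of miR-135a-5p from caput to cauda was -3.39 in whole tissue with TMM and -3.38 with library totals. In epithelial cells the corresponding values were -0.86 and -0.85. The values of the 2 steps in epithelial cells depended on which corpus library was used. Without corpus replicate 1 the change from caput to corpus was -0.048 and that from corpus to cauda -0.81 (log2), and without corpus replicate 2 they were -0.56 and -0.27.

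A further fit took all 14 libraries and the 194 miRNAs identified in both preparations under the same name. miRNAs named differently in the preparations, such as the arms of miR-126, were left out. The change from caput to cauda in epithelial cells minus that in whole tissue was 2.62 (log2, SE 0.31) for miR-135a-5p, the second highest estimate of the 194. The median of this difference over the 194 was 0.38 with TMM, 0.12 with DESeq2's size factors and 0.20 with library totals, and relative to the median miR-135a-5p stood at 2.25, 2.25 and 2.24. In the same fit its level in epithelial cells over that in whole tissue was higher by 0.33 (SE 0.19) in the caput, 1.54 (SE 0.25) in the corpus and 2.96 (SE 0.24) in the cauda (log2), which placed it 52nd, 14th and 3rd of 194.

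A difference between preparations of at least 2-fold with an adjusted p below 0.05 (limma-voom, Benjamini-Hochberg) was called for 39 of the 194 miRNAs (20.1%), a count that was 25 with DESeq2's size factors and 21 without epithelial cauda replicate 1. By the rule for naming miRNAs, those next to miR-135a-5p in the order of the estimates are given here. Directly above it was miR-450a-5p, with an estimate of -1.45 in whole tissue and 1.16 in epithelial cells (difference 2.64, SE 0.44, adjusted p = 0.00062). Below it were miR-351-5p (2.24, SE 0.44, adjusted p = 0.0024), encoded in the same X-linked cluster as miR-450a, then miR-409-5p of the imprinted Dlk1-Dio3 region (2.10, SE 0.88, adjusted p = 0.087, not called), and miR-17-5p of the proliferation-associated miR-17-92 cluster (2.08, SE 0.24, adjusted p = 2.9e-05). Without epithelial cauda replicate 2, miR-351-5p was no longer called (1.54, adjusted p = 0.060), while miR-409-5p was called without whole tissue caput replicate 2 (2.47, adjusted p = 0.043) or without epithelial caput replicate 2 (3.69, adjusted p = 0.0084) and had an estimate of 0.57 (adjusted p = 0.61) without epithelial caput replicate 1. Without epithelial cauda replicate 2 the difference of miR-17-5p was 1.46 (adjusted p = 0.0025), and without epithelial caput replicate 1 that of miR-450a-5p was 3.23 (adjusted p = 0.00089). The mean CPM of miR-17-5p was 264 in the whole caput, 92.9 in the whole cauda, 282 in the epithelial caput and 386 in the epithelial cauda, and that of miR-450a-5p was 76.8, 35.5, 62.6 and 147 in the same groups.

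**Figure D2:**
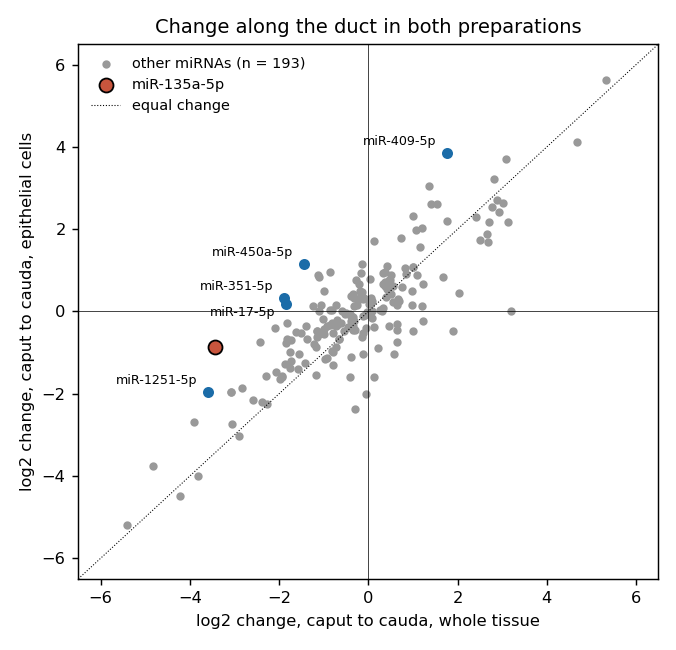
Change from caput to cauda (log2, limma-voom with TMM) in whole tissue on the x axis and in epithelial cells on the y axis, with 1 point for each of the 194 miRNAs identified in both preparations under the same name and a dotted line of equal change. miR-135a-5p lies at -3.43 and -0.86, above the line, and the miRNAs next to it in the order of the difference, with miR-1251-5p of the Rmst locus, are named in blue.

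Since epithelial markers also differed between the libraries, the counts of miR-135a-5p were set against the summed counts of the 6 epithelial markers in the same library, a measure chosen after the values were seen. Per 100 marker counts there were 7.29, 4.69 and 5.98 counts of miR-135a-5p in caput libraries of whole tissue, 2.56 and 2.92 in corpus libraries and 1.32, 1.35 and 1.45 in cauda libraries. In epithelial cells there were 6.30 and 8.10 in caput libraries, 3.33 and 4.64 in corpus libraries and 3.22 and 2.57 in cauda libraries. On this measure the caput libraries of the preparations overlapped, while in the cauda all epithelial libraries lay above all whole tissue libraries. Whole tissue had a ratio of caput to cauda of 4.37 and epithelial cells one of 2.49, and the epithelial mean was 1.20 times the whole tissue mean in the caput, 1.45 times in the corpus and 2.11 times in the cauda.

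**Figure D3:**
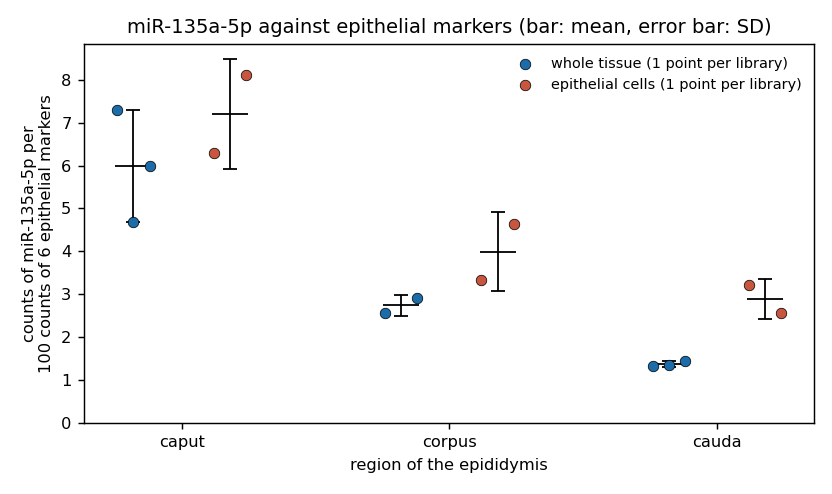
Counts of miR-135a-5p per 100 summed counts of 6 epithelial markers by region, with 1 point per library, a bar at the mean and an error bar of 1 SD (whole tissue n = 3, 2 and 3, epithelial cells n = 2 per region). The cauda has the lowest values in both preparations, with means of 5.99, 2.74 and 1.37 in whole tissue and 7.20, 3.99 and 2.89 in epithelial cells.

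The epithelial sum was carried by different markers in the preparations, since miR-205-5p, known from basal and stratified epithelia, had a mean of 10115 to 22738 CPM by region in epithelial cells and 1211 to 2128 CPM in whole tissue. Each marker was therefore also used alone. The ratio of caput to cauda lay between 2.05 (miR-429-3p) and 5.96 (miR-205-5p) in whole tissue and between 0.99 (miR-200c-3p) and 3.54 (miR-205-5p) in epithelial cells. It was larger in whole tissue for each of the 6 markers. All 6 ratios share the counts for which miR-135a-5p was chosen, so they are not independent and give no added support. In epithelial cells the caput and cauda libraries overlapped per count of miR-200c-3p and of miR-429-3p. Against miR-205-5p alone miR-135a-5p was lower in epithelial cells than in whole tissue, with 0.27 times the whole tissue mean in the caput, 0.29 times in the corpus and 0.45 times in the cauda, whereas against each of the other 5 markers the cauda mean was 1.85 to 9.95 times as high in epithelial cells.

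Other arms of the miR-135 hairpins that were counted had few counts. In whole tissue miR-135a-2-3p, the partner arm of mir-135a-2, had 32, 24 and 25 counts in caput libraries, 8 and 6 in corpus libraries and 13, 2 and 6 in cauda libraries, so that the caput lay above the other regions, which overlapped. Summed over the 8 libraries there were 74 counts of miR-135a-5p for each count of this arm. It fell by 1.71 from caput to corpus (log2, SE 0.52, adjusted p = 0.016) and fell by 2.24 from caput to cauda (SE 0.47, adjusted p = 0.0014) in limma-voom. The first of these calls was lost without corpus replicate 1 (adjusted p = 0.051) or without corpus replicate 2 (adjusted p = 0.14), which are the only corpus libraries of whole tissue.

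In epithelial cells miR-135a-2-3p had 8 and 9 counts in caput libraries, 3 and 1 in corpus libraries and 2 and 2 in cauda libraries, below the filter on counts used for the test. In CPM the caput (22.0 and 27.7) overlapped with the corpus (23.6 and 11.2) and lay above the cauda (7.06 and 11.2), where a count of 3, the floor used here, already equals 8.27 to 33.7 CPM in these libraries. Its counts per 100 counts of miR-135a-5p were 1.39 and 1.37 in the caput libraries, 1.89 and 0.54 in the corpus libraries, which spanned the others, and 0.69 and 0.90 in the cauda libraries, against 1.05 to 1.49 in the caput and 1.12 to 5.14 in the cauda of whole tissue.

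The other member of the family, miR-135b-5p, comes from a hairpin on chromosome 1 (132198088 to 132198184, plus strand) in an intron of Lemd1. In whole tissue it had 33, 12 and 18 counts in caput libraries, 20 and 8 in corpus libraries and 2, 3 and 5 in cauda libraries, so that the cauda lay below the other regions. The change was -0.46 from caput to corpus (SE 0.52, adjusted p = 0.47, not called) and turned to 0.37 without corpus replicate 2. It fell by 2.13 from corpus to cauda (SE 0.74, adjusted p = 0.033) and fell by 2.59 from caput to cauda (SE 0.66, adjusted p = 0.0048). Without any 1 of the 3 cauda libraries the call from corpus to cauda was lost (adjusted p = 0.084 without replicate 1, 0.091 without replicate 2 and 0.055 without replicate 3), and without corpus replicate 1 it did not reach the count needed for the test. In epithelial cells miR-135b-5p had 2 and 7 counts in caput libraries, 0 and 8 in corpus libraries and 11 and 8 in cauda libraries, with the 0 allowing up to 23.6 CPM. In CPM the caput (5.51 and 21.5) overlapped with the corpus (0 and 89.8) and lay below the cauda (38.8 and 44.7), unlike in whole tissue. These values rest on few counts, and miR-135b-5p was below the filter on counts used for the test. The 3p arm miR-135b-3p had 1 count in 1 corpus library of whole tissue and 0 in the other 7.

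Within 50 kb of these hairpins RefSeq lists let-7g, 24627 bases from mir-135a-1 on the same strand and in an intron of Wdr82. Its 5p arm, a member of the let-7 family that marks differentiated cells, had another profile than miR-135a-5p. The mean CPM of let-7g-5p was 5427 ± 154 (n = 3) in the caput, 7415 ± 168 (n = 2) in the corpus and 5253 ± 337 (n = 3) in the cauda of whole tissue. Its largest change there was -0.51 (log2, SE 0.09, adjusted p = 0.00072) from corpus to cauda, under the 2-fold threshold. In epithelial cells the mean CPM was 6995 ± 310, 9965 ± 519 and 6994 ± 2490 (n = 2 each). None of its epithelial changes was called by limma-voom, edgeR or DESeq2, although the unadjusted p from corpus to cauda was 0.015 in limma-voom. The difference between preparations was 0.20 (SE 0.16, adjusted p = 0.39, unadjusted p = 0.25), and its sign depended on the scaling, as it was -0.053 with DESeq2's size factors. let-7g-3p had 1 count in 1 whole tissue library and 0 in the other 7.

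Counted together, the relatives listed in whole tissue were 5, of which those above the filter on counts were tested. From caput to corpus 1 of 3 was called, where 29.9% of all miRNAs tested were. From corpus to cauda 1 of 2 was called, against 27.3% of all, and from caput to cauda 2 of 3, against 53% of all. In epithelial cells let-7g-5p was the only relative above the filter and was not called in any comparison, where 15.6% (caput to corpus), 10.9% (corpus to cauda) and 25.9% (caput to cauda) of all miRNAs were. These shares were not stable, since the 32, 21 and 56 calls behind them became 7, 5 and 26 without epithelial caput replicate 2. The first 2 were 15 and 13 without caput replicate 1, and the calls from corpus to cauda were 6 without corpus replicate 1 and 11 without corpus replicate 2.

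A miRNA outside the window, miR-1251-5p, was added after its values were seen, because its hairpin lies in an intron of the same host gene, Rmst, as mir-135a-2. It is 64955 bases away on the same strand (chr10:92137140-92137223), and its mature sequence is shown because its seed, in capitals, differs from that of miR-135a-5p.
miR-1251-5p: aCUCUAGCugccaaaggcgcu
In whole tissue it had 100, 90 and 102 counts in caput libraries, 47 and 44 in corpus libraries and 11, 13 and 4 in cauda libraries, with no overlap between regions. The changes in limma-voom were -0.92 from caput to corpus (log2, SE 0.23, adjusted p = 0.0061, under 2-fold), -2.66 from corpus to cauda (SE 0.38, adjusted p = 0.00026, called) and -3.58 from caput to cauda (SE 0.34, adjusted p = 6.4e-06, called). The first of these became a call with the replicate number as a block (-1.03, adjusted p = 0.0047), although same-numbered caput and corpus libraries hardly deviated together (r = 0.0094 and 0.017), and without corpus replicate 1 (-1.06, adjusted p = 0.024).

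In epithelial cells miR-1251-5p had 18 and 16 counts in caput libraries, 8 and 5 in corpus libraries and 4 and 2 in cauda libraries. Scaled by the library totals these were 49.2 to 49.6 CPM in the caput, 56.2 to 62.9 CPM in the corpus, whose libraries were shallower, and 11.2 to 14.1 CPM in the cauda, and the change from caput to corpus was 0.18 (log2, SE 0.42, adjusted p = 0.81, not called). It fell by 1.95 from caput to cauda (log2, SE 0.50, adjusted p = 0.017), a call that was lost in DESeq2 (adjusted p = 0.075) and without any 1 of the 4 caput and cauda libraries (adjusted p = 0.088 and 0.071 without caput replicate 1 or 2, 0.053 and 0.078 without cauda replicate 1 or 2). The difference between preparations was 1.67 (SE 0.57, adjusted p = 0.035) and was not called in 15 of 21 alternatives, among them the block of replicate numbers (adjusted p = 0.051). In counts per 100 counts of miR-135a-5p, miR-1251-5p had means of 4.60, 6.60 and 4.47 along whole tissue and 2.78, 3.87 and 1.14 along the epithelial libraries.

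**Figure D4:**
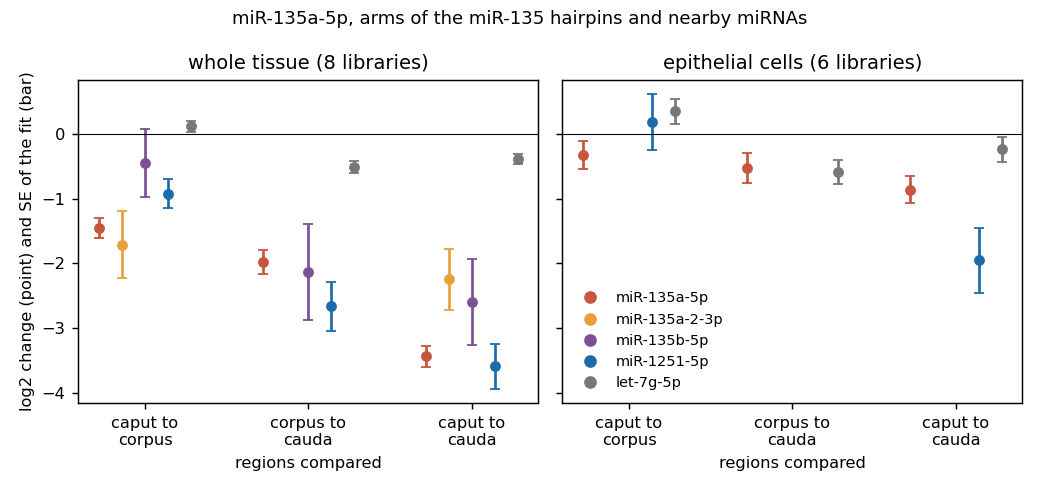
Log2 change (points) with the standard error of the limma-voom fit (bars) between regions in whole tissue and in epithelial cells for miR-135a-5p, its relatives and miR-1251-5p, where the counts were enough for the test. miR-135a-5p and miR-1251-5p had log2 changes of -3.43 and -3.58 from caput to cauda in whole tissue and of -0.86 and -1.95 in epithelial cells, and let-7g-5p lay between -0.59 and 0.34 throughout.

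The miRNAs whose profile was most like that of miR-135a-5p were taken from the correlation over libraries of log2 CPM, here with TMM scaling. Libraries share region, preparation and depth, so these values describe common profiles and carry no p. Over the 14 libraries and 193 other miRNAs, miR-183-5p, of a cluster known from sensory and other epithelia, was the most like (Pearson r = 0.96, Spearman rho = 0.94). It was followed by miR-99b-5p (0.93 and 0.84), miR-17-5p (0.93 and 0.65), miR-187-3p (0.93 and 0.82) and let-7b-5p (0.90 and 0.84). The mean CPM of miR-183-5p was 2090, 1334 and 752 along whole tissue and 2543, 2230 and 1833 along the epithelial libraries, a smaller range than that of miR-135a-5p. Like miR-135a-5p, each of these 5 had its lowest mean in the whole cauda. miR-1251-5p was 9th of the 193 in this order (r = 0.81), and let-7g-5p was 36th (r = 0.58).

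**Figure D5:**
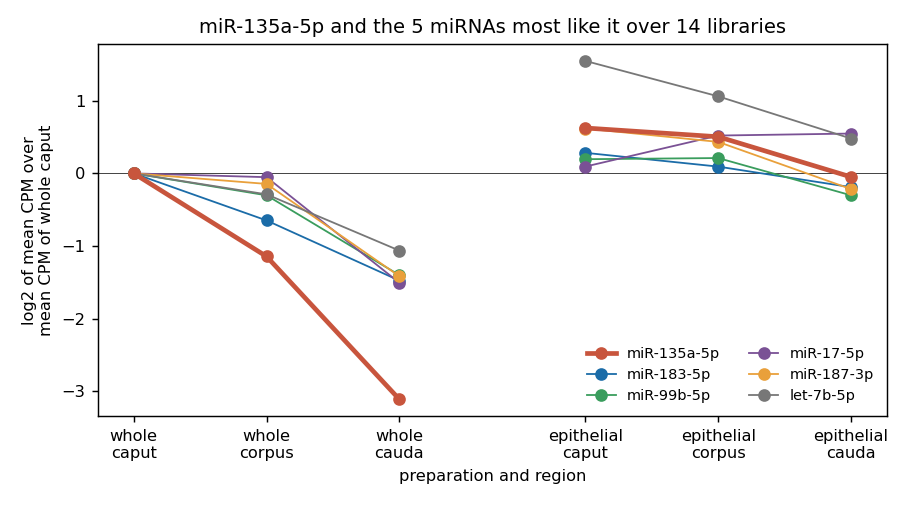
Mean CPM of miR-135a-5p (thick line) and of the 5 miRNAs most like it over 14 libraries, as log2 of the ratio to the mean of the whole caput, by region in whole tissue (left) and epithelial cells (right). All 6 lines reach their lowest point in the whole cauda, and the line of miR-135a-5p goes from 1170 to 136 CPM.

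Within whole tissue, over 8 libraries and 359 other miRNAs, the closest were miR-10a-5p (r = 0.999, rho = 1), which is encoded in the Hoxb cluster, miR-467d-5p (r = 0.99), miR-191-5p (r = 0.99), miR-467c-5p (r = 0.98) and miR-99b-5p (r = 0.98). Scaled by library totals, miR-10a-5p had means of 73445, 68506 and 43570 CPM from caput to cauda, a smaller range than that of miR-135a-5p and with overlap of caput and corpus, and the rare miR-467c-5p, of the Sfmbt2 cluster, had 52.0, 22.0 and 7.27 CPM. Within epithelial cells, over 6 libraries and 215 others, the closest were miR-181c-3p (r = 0.97), miR-214-3p (0.93), miR-29b-3p (0.93), let-7b-5p (0.91) and miR-672-5p (0.90). No miRNA was among the closest 5 in both preparations, and the lists were not firm, since 1 of the 5 stayed in whole tissue when Spearman's rho was used and 1 of the 5 in epithelial cells without corpus replicate 1. In whole tissue the corpus and cauda means of miR-214-3p, 91.9 and 68.7 CPM, were above its caput mean of 35.8 CPM, unlike those of miR-135a-5p. Among the relatives, miR-135b-5p (r = 0.88) and miR-135a-2-3p (r = 0.84) were 66th and 81st of 359 in whole tissue, where miR-1251-5p was 34th (r = 0.94).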

How the data were processed

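Reads were trimmed by the authors, cleared of control, adaptor, ribosomal and mitochondrial sequences, then aligned to mm10 and to mature miRNAs of miRBase release 21. The submitters' processing notes name CASAVA 1.8.2, Bowtie 1.1.1 and limma. The authors deposited unnormalized expected counts of mature miRNAs in 1 table for each preparation, and 0.001 added to each epithelial value was removed.

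Rounded counts were fitted in limma-voom (R 4.3.3, limma 3.58.1) using TMM factors (edgeR 4.0.16) from the miRNAs identified in the preparation, meaning a mean count above 10 in a region. Each preparation had 1 fit with region means, covering miRNAs above that count in either region compared. The difference between preparations was an interaction term in 1 fit of all 14 libraries. Calls needed a Benjamini-Hochberg adjusted p below 0.05 and a 2-fold change. Errors are SD between libraries, and CPM use library totals unless TMM scaling is named. The script was tested on simulated data.

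Named were miR-135a-5p, other arms of the miR-135 hairpins, miRNAs with its seed or within 50 kb, the 5 most correlated over all libraries and in each preparation, up to 3 neighbours on each side in the interaction order (1 above, since miR-135a-5p was second), and marker miRNAs. The miRNA, lists and tests were chosen with earlier results of these data known.

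Replicate numbers come from the sample titles, whereas the study's methods give 2 replicates per region and its supplement may number the epithelial replicates the other way round. In whole tissue, deviations from the region means correlated between caput and cauda libraries of the same number (r = 0.23, 0.13 and 0.11). Different numbers gave -0.21 to 0.083 for caput and cauda, and up to 0.16 (corpus 2 with cauda 3) for corpus and cauda. The numbers were taken to pair caput and cauda there, and the block was an alternative. Deviations within a region sum to 0, so these values are not independent and the pairing is uncertain. In whole tissue r was 0.0094 and 0.017 for caput and corpus and 0.21 and 0.14 for corpus and cauda, and in epithelial cells 0.19 for caput and corpus, -0.14 for caput and cauda and -0.11 for corpus and cauda. Other alternatives were edgeR, DESeq2 (1.42.0), 2 scalings, no filter, only the libraries compared, and leaving out each library. Sequences and positions are from RefSeq (GRCm38.p6) and introns from GENCODE M21.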

Additional observations from a re-analysis of the deposited data

Results flagged for a closer look

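Differences between preparations in the change from caput to cauda were tested by the interaction of preparation and region (limma-voom, adjusted over 194 miRNAs). This test is given for the neighbours of miR-135a-5p in the order of the estimates, let-7g-5p and miR-1251-5p. Of these, 4 were called and miR-409-5p and let-7g-5p were not, where 39 of all 194 (20.1%) were called. The called differences were 2.64 for miR-450a-5p, 2.24 for miR-351-5p, 2.08 for miR-17-5p and 1.67 for miR-1251-5p (log2, epithelial minus whole tissue). The first 3 were taken for lying next to miR-135a-5p in the order of these same estimates, and miR-1251-5p was added after its values were seen. Their calls therefore partly follow from how they were chosen. The calls of miR-450a-5p and miR-17-5p held in all 21 alternatives, that of miR-351-5p in 20, and that of miR-1251-5p in 6. No group had the 4 libraries needed to look for an outlying library.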

How the results depend on the processing

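The log2 changes of miR-135a-5p kept their sign in all alternatives run. With library totals they were -1.12 from caput to corpus and -3.08 from caput to cauda in whole tissue, which moved with the median of all miRNAs. Leaving out each library gave -1.52 to -1.29, -2.02 to -1.90 and -3.49 to -3.25 for the steps of whole tissue and the whole range, -0.56 to -0.048, -0.81 to -0.27 and -0.92 to -0.71 in epithelial cells, and 2.23 to 2.89 for the difference between preparations. The number of relatives called in whole tissue went from 1 to between 0 and 1 when a library was left out, in both steps along the duct. With a library left out, the change of miR-135b-5p from caput to corpus in whole tissue was -1.15 to 0.37 (positive without corpus replicate 2) and that of let-7g-5p from caput to cauda in epithelial cells -0.47 to 0.041 (positive without cauda replicate 1). The difference between preparations of let-7g-5p was -0.053 with DESeq2's size factors, -0.053 with no filter and -0.043 in DESeq2, and -0.43 to 0.26 with a library left out (negative without epithelial cauda replicate 2). The cause of these changes of sign was not tested. Of the 5 miRNAs most like miR-135a-5p, 3 stayed with Spearman's rho over 14 libraries, 3 with library totals and 1 with Spearman's rho in whole tissue, and 3 with either in epithelial cells. Leaving out a library kept 4 to 5, 3 to 5 and 1 to 5 of them. With the replicate block the log2 change of miR-135a-5p from caput to cauda was -3.44 (whole tissue) and -0.86 (epithelial cells) and the difference 2.62, and beside the calls of miR-1251-5p given above it changed no call of a relative. With crossed numbers of the epithelial cauda libraries in the block, calls over all miRNAs were 39, 30 and 64 along the epithelial duct, against 29, 21 and 52 with the numbers as labelled and 32, 21 and 56 with no block. Calls over all miRNAs differed by over 1.5 times from the main ones in the following settings. With no filter the epithelial steps gave 53 and 37 in place of 32 and 21, and for the difference between preparations there were 25 in place of 39 with DESeq2's size factors or in DESeq2. Leaving out a library brought the counts for the 3 epithelial comparisons and the difference down to 7, 5, 26 and 21 at the lowest. Depth limits what can be said of the rare arms in epithelial cells, where 3 counts equal up to 33.7 CPM.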
